A study of Mus musculus with 24 samples.

Results

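Tiam1 and Tiam2 are paralogous mouse genes, and the measured CpGs of their loci are described here in young and aged mice kept in different housing. All CpGs of the deposited methylation table that lay inside either gene, or within 5 kb of it, were taken on both strands, with gene limits from GENCODE M21 on mm10. That gave 329 CpGs, 237 at Tiam1 and 92 at Tiam2, out of 762137 CpGs in the table, and these were 2 of 35201 gene loci with a measured CpG. DNA came from the micro-dissected dentate gyrus of female C57BL/6JRj mice and was measured by RRBS (reduced representation bisulfite sequencing), a method that sequences the ends of fragments cut at CCGG by the enzyme MspI. The table held 19 of the 24 mice described: 5 Young STD mice of 1.5 months in standard cages, 7 Aged STD mice of 14 months in standard cages and 7 Aged ENR mice of 14 months in an enriched environment. The Young ENR mice were not analysed here, so the enriched housing was compared only at 14 months. Per the study, mice of every group entered their housing at the same age. The young mice had spent only days in it and the aged mice more than a year. The enriched environment was one large enclosure with tunnels and toys that a whole group shared, so housing and cage cannot be told apart.

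Each value was the percent of reads methylated at one cytosine in one mouse, and a value was missing where fewer than 10 reads covered the cytosine. The number of reads behind a value was not given, so the depth is unknown and no counting interval can be attached. Each mouse had 64.3% to 95.2% of the table's CpGs measured. At Tiam1 77.0% of the values were measured and 66.7% of those were exactly 0% or 100%, and at Tiam2 79.4% were measured and 72.4% were at those limits. The tissue was a mix of cell types, in which a change of cell mix and a change of methylation within cells cannot be told apart.

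Tiam1 and Tiam2 encode guanine nucleotide exchange factors that load the small GTPase Rac with GTP. Active Rac drives actin assembly, through which Tiam1 takes part in the growth of dendrites and spines downstream of glutamate, ephrin and neurotrophin receptors, and Tiam2 (also called STEF) in the outgrowth of neurites. Methylation of CpGs is typically absent from CpG-rich starts of active genes and common in gene bodies, where it varies between cell types.

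Tiam1 (ENSMUSG00000002489.16) lay at chr16:89787111-90143769 on the minus strand, spanned 357 kb and had 15 annotated transcripts. It held more measured CpGs than 99.8% of gene loci. None of its CpGs fell in either flank. Tiam2 (ENSMUSG00000023800.15) lay at chr17:3326573-3531344 on the plus strand, spanned 205 kb, had 9 transcripts and held more measured CpGs than 94.7% of loci. Of its 92 CpGs, 78 lay in the gene and 14 in the upstream flank, within 67 bases of the start, and no member CpG lay in another annotated gene.

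The sequences of 5 fragments show what the values were read from, each given as the mm10 plus strand from its first to its last CCGG cut with the CpGs that have a value on either strand in capitals. The first is the Tiam1 fragment that ends in the cytosine singled out by the study, the second is the Tiam1 fragment with the highest difference of Aged ENR from Aged STD among those with at least 3 CpGs and enough mice to be tested, and the third holds the Tiam2 CpG at which Aged ENR and Young STD did not overlap. The last pair lie at the CpG-rich first starts of the genes and are shown for contrast.
Tiam1 chr16:89896211-89896499: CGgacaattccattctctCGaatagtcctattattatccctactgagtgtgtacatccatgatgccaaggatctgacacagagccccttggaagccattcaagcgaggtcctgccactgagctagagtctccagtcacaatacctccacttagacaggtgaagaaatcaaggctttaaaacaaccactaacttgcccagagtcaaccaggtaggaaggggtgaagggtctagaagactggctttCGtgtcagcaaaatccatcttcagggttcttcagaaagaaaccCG
Tiam1 chr16:89934766-89934931: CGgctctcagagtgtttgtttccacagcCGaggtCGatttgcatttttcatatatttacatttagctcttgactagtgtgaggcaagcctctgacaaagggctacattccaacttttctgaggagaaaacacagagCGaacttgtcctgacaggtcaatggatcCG
Tiam2 chr17:3503797-3503923: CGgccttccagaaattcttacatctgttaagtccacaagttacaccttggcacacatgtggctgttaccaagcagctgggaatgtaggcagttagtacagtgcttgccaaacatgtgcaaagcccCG
Tiam1 chr16:90143554-90143664: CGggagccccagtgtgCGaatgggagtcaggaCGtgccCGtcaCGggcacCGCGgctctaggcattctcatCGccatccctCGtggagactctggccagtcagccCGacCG
Tiam2 chr17:3326599-3326689: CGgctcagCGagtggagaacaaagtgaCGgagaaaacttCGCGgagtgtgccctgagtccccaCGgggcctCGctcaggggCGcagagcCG
The fragments at the starts held 9.91 CpGs per 100 bases at Tiam1 and 9.89 at Tiam2, against 1.73, 3.01 and 1.57 in the 3 gene-body fragments in the order shown.

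The cytosine taken as that of the study lay at chr16:89896499 on the minus strand, in the CpG that closes its 289-base fragment, and was therefore the first cytosine read from the minus-strand end. It was in intron 4 of Tiam1-213 and intron 5 of Tiam1-204. The study's text names the position 1 base lower, which counted from 1 is the plus-strand cytosine of the same CpG. That cytosine was not analysed here, and the minus-strand one was the only cytosine of this CpG in the table, so the match is to the CpG and not to the strand. It was chosen by the study for its differences between these same groups, so its values are a description, with no test.

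In the Young STD mice it was methylated at 100%, 100%, 25%, 100% and 100%. It was measured in 3 of the 7 Aged STD mice, at 54.5% in mouse 1, 0% in mouse 3 and 50% in mouse 6. In the Aged ENR mice it was measured in 4 of 7, at 100% in mice 1, 4 and 5 and at 42.1% in mouse 2. Young STD and Aged ENR were each fully methylated except in 1 mouse, and the ranges of Young STD and Aged STD overlapped because of Young STD mouse 3. The group means were 85.0%, 34.8% and 85.5% for Young STD, Aged STD and Aged ENR. The differences were -50.2 points for Aged STD minus Young STD, 50.7 points for Aged ENR minus Aged STD and 0.526 points for Aged ENR minus Young STD, the first and second of which share the 3 Aged STD mice. Library numbers in the labels opened with 27 or 37, and within these library series the first difference was -47.7 points (2 Aged STD against 3 Young STD mice) and -50 points (1 against 2). The second was 53.4 points (3 Aged ENR against 2 Aged STD mice) and 50 points, where each group had 1 mouse, so series 37 gives no check between mice.

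Among the 237 CpGs of Tiam1, the cytosine had the second lowest difference from Young STD to Aged STD and the second highest from Aged STD to Aged ENR. The CpG just beyond it in the first ranking was at 89934794 with -60.4 points and the one just inside was at 89793570 with -45.4 points. The CpG at 89793570 also led the second ranking, with 55.7 points. Over the CpGs beyond 10 kb from the cytosine, the differences ran from -60.4 to 49.4 points and from -51.4 to 55.7 points, so the cytosine lay within the spread of its locus in both comparisons.

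**Figure D1:**
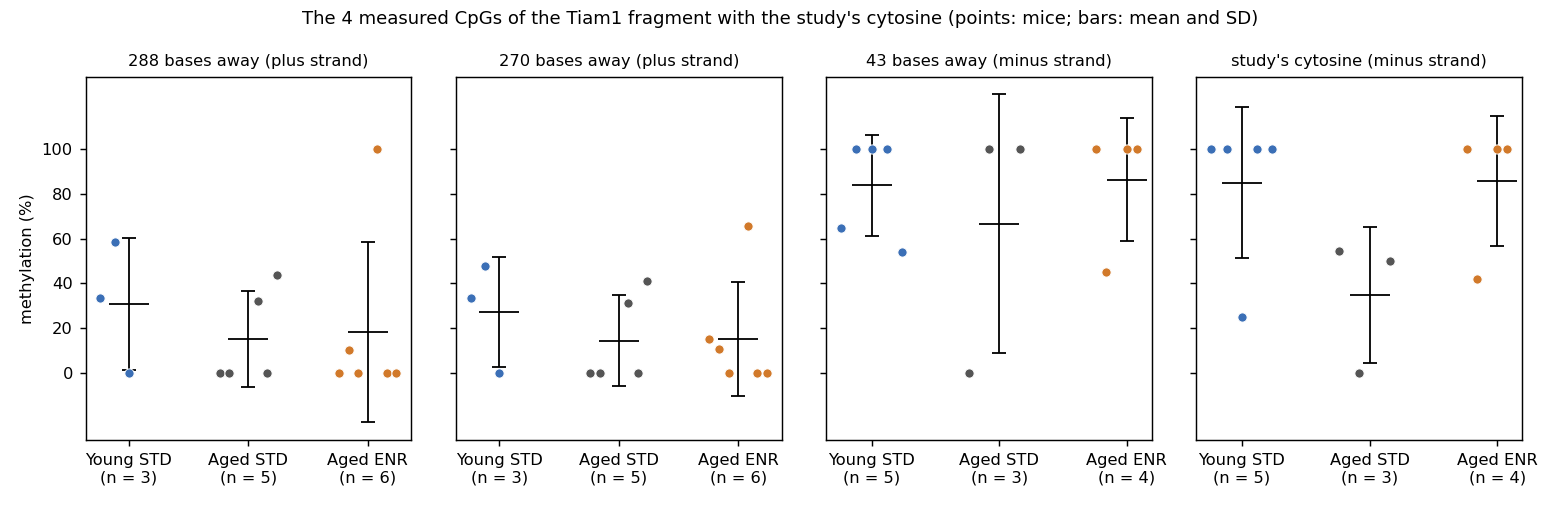
Methylation in percent (y axis) of the 4 measured CpGs of the Tiam1 fragment with the study's cytosine, by group (x axis, with the number of mice measured); points are mice, the horizontal bar is the mean and the whiskers the SD. Only the study's cytosine has an Aged STD mean (34.8%) far below both other groups, and its neighbour 43 bases away has an Aged STD mean of 66.7%.

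The other measured CpGs of the fragment gave smaller differences. The CpG 43 bases away on the same strand, which the same reads cover, was methylated at 64.7%, 100%, 100%, 100% and 53.8% in the Young STD mice. It was at 0%, 100% and 100% in Aged STD mice 1, 3 and 6, and at 100%, 45%, 100% and 100% in Aged ENR mice 1, 2, 4 and 5. The Aged STD mouse that lacked methylation at the cytosine (mouse 3) was fully methylated at this neighbour, and the mouse that lacked it at the neighbour (mouse 1) was at 54.5% at the cytosine. The group means at this neighbour were 83.7%, 66.7% and 86.2%.

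At the far end of the fragment, the plus-strand CpG 288 bases away was at 33.3%, 58.6% and 0% in the 3 Young STD mice measured. It was at 0% in 3 of 5 Aged STD mice and at 32.4% and 43.8% in mice 5 and 7, and in Aged ENR it was at 0% in 4 of 6 mice, at 10.5% in 1 and at 100% in mouse 5. The groups overlapped there, with means of 30.7%, 15.2% and 18.4%, and the CpG beside it, 270 bases from the cytosine, had means of 27.1%, 14.5% and 15.3%. Over the 3 other CpGs, the differences ran from -17.0 to -12.5 points for Aged STD minus Young STD and from 0.764 to 19.6 points for Aged ENR minus Aged STD. The plain means over the 4 CpGs of the fragment were 56.6%, 32.8% and 51.4%. When each CpG was first centred on its own level, so that mice lacking the cytosine also counted, the fragment differed by -19.7 points and 8.38 points in these comparisons. Within library series 27 and 37 the first of these was -34.0 and -6.61 points and the second was 24.0 and -6.82 points.

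Outside the fragment, the next CpGs were about 1 kb away on either side. On the left, the minus-strand CpG 1043 bases away had means of 82.3%, 43.5% and 40.8% in Young STD, Aged STD and Aged ENR. It was lower in Aged STD than in Young STD, as at the study's cytosine, but Aged ENR lay beside Aged STD and not beside Young STD. On the right, 2 plus-strand CpGs 979 and 990 bases away were low in all groups, with a mean of 5.65% in Young STD, 1.09% in Aged STD and 2.64% in Aged ENR.

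Within 2 kb there were 13 CpGs outside the fragment, of which 8 lay in exon 4 of Tiam1-213. Over these 13, the group means were 16.9%, 7.40% and 11.1%. Aged STD was lower than Young STD at 11 and higher at 1, with a median difference of -7.38 points and a range of -38.9 to 3.53 points. Aged ENR was lower than Aged STD at 3 and higher at 9, with a median of 2.94 points and a range of -6.09 to 18.4 points. These comparisons use the same Aged STD mice, so their opposite directions are not separate observations. Over the remaining 214 CpGs of the locus, beyond 10 kb, both medians were 0 and the means were 33.8%, 30.1% and 30.0%.

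**Figure D2:**
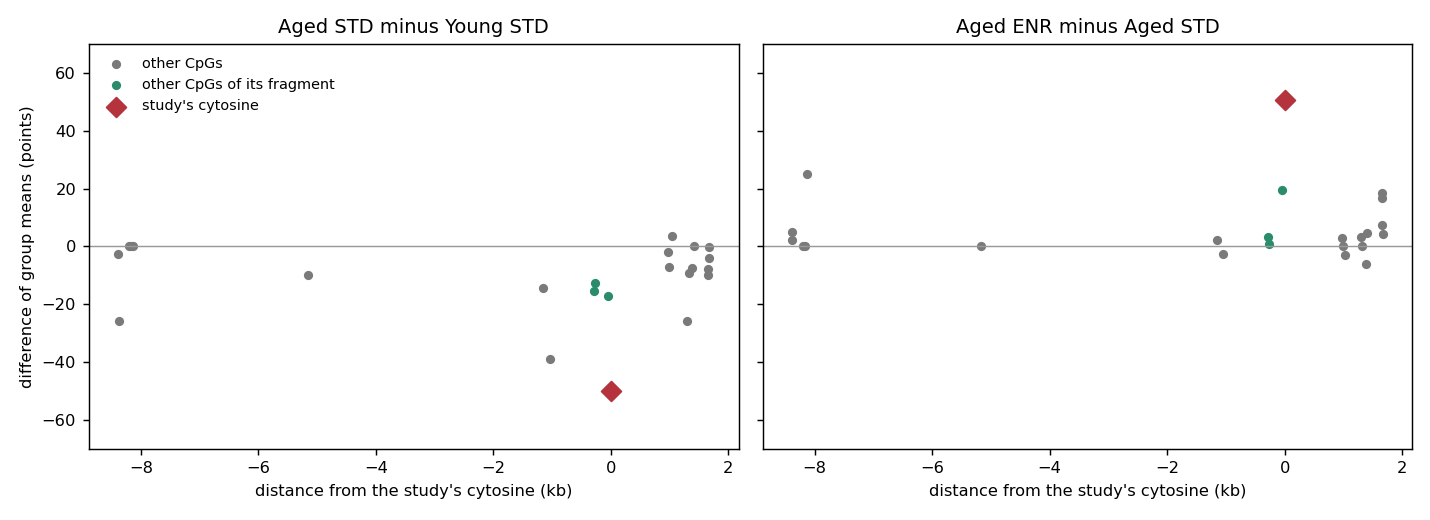
Differences of group means in points (y axis) for the CpGs around the study's Tiam1 cytosine against their distance from it in kb (x axis), for Aged STD minus Young STD (left) and Aged ENR minus Aged STD (right); the diamond is the study's cytosine and coloured points are the other CpGs of its fragment. The diamond sits at -50.2 and 50.7 points, and the other 3 CpGs of the fragment lie between -17.0 and -12.5 points on the left and between 0.764 and 19.6 points on the right.

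Along both genes, methylation was low at the CpG-rich starts and varied widely in the body. The first start of Tiam1, that of Tiam1-204, had 33 CpGs within 1 kb, with means of 1.21%, 1.44% and 1.15% in Young STD, Aged STD and Aged ENR, and no mouse exceeded 3.44% over them. The starts of Tiam1-201 and Tiam1-206, which lie close together, had the same 17 CpGs within 1 kb, with means of 0.631%, 1.19% and 1.28%. The first start of Tiam2, that of Tiam2-202, had 61 CpGs with means of 2.22%, 2.32% and 2.49%, and mice ranged from 1.02% to 4.92%. In these 3 sets of CpGs the mean of a mouse was at most 6.09%, and the group means differed by under 1 point.

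Other starts were methylated. The 5 CpGs around the start of Tiam1-213 had means of 75%, 72.8% and 68.8%, with mice from 15.3% to 100%. This transcript has 28 exons, as has Tiam1-201, whose start was low. The 3 CpGs near Tiam2-208 had means of 65.1%, 76.3% and 86.3%, and the 4 near Tiam2-206 had 38.7%, 21.6% and 21.4%. The single CpG near Tiam1-202 had means of 75.4%, 46.6% and 57.4% with mice at both 0% and 100%. Tiam2-201, the other 27-exon transcript of Tiam2, had no measured CpG within 1 kb of its start.

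Introns carried most of the variable CpGs. Tiam1 had 162 intronic CpGs more than 1 kb from a start with means of 40.4%, 34.1% and 35.2%, 19 exonic CpGs with 60.6%, 59.3% and 58.7%, and 56 CpGs within 1 kb of a start with 8.95%, 8.54% and 8.23%. Tiam2 had 21 intronic CpGs with 53.1%, 44.2% and 43.5%, 3 exonic CpGs with 59.3%, 25.1% and 37.6%, and 68 near a start with 7.14%, 6.72% and 7.30%. Pooled over the CpGs near any start, many of them close to 0%, the group means were within 1 point of each other, while single starts given above differed by more. In the introns of both genes the aged means lay below the young mean. In Young STD, 95 Tiam1 CpGs were under 10%, 115 between 10% and 90% and 27 over 90%, and the same counts at Tiam2 were 61, 25 and 6.

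**Figure D3:**
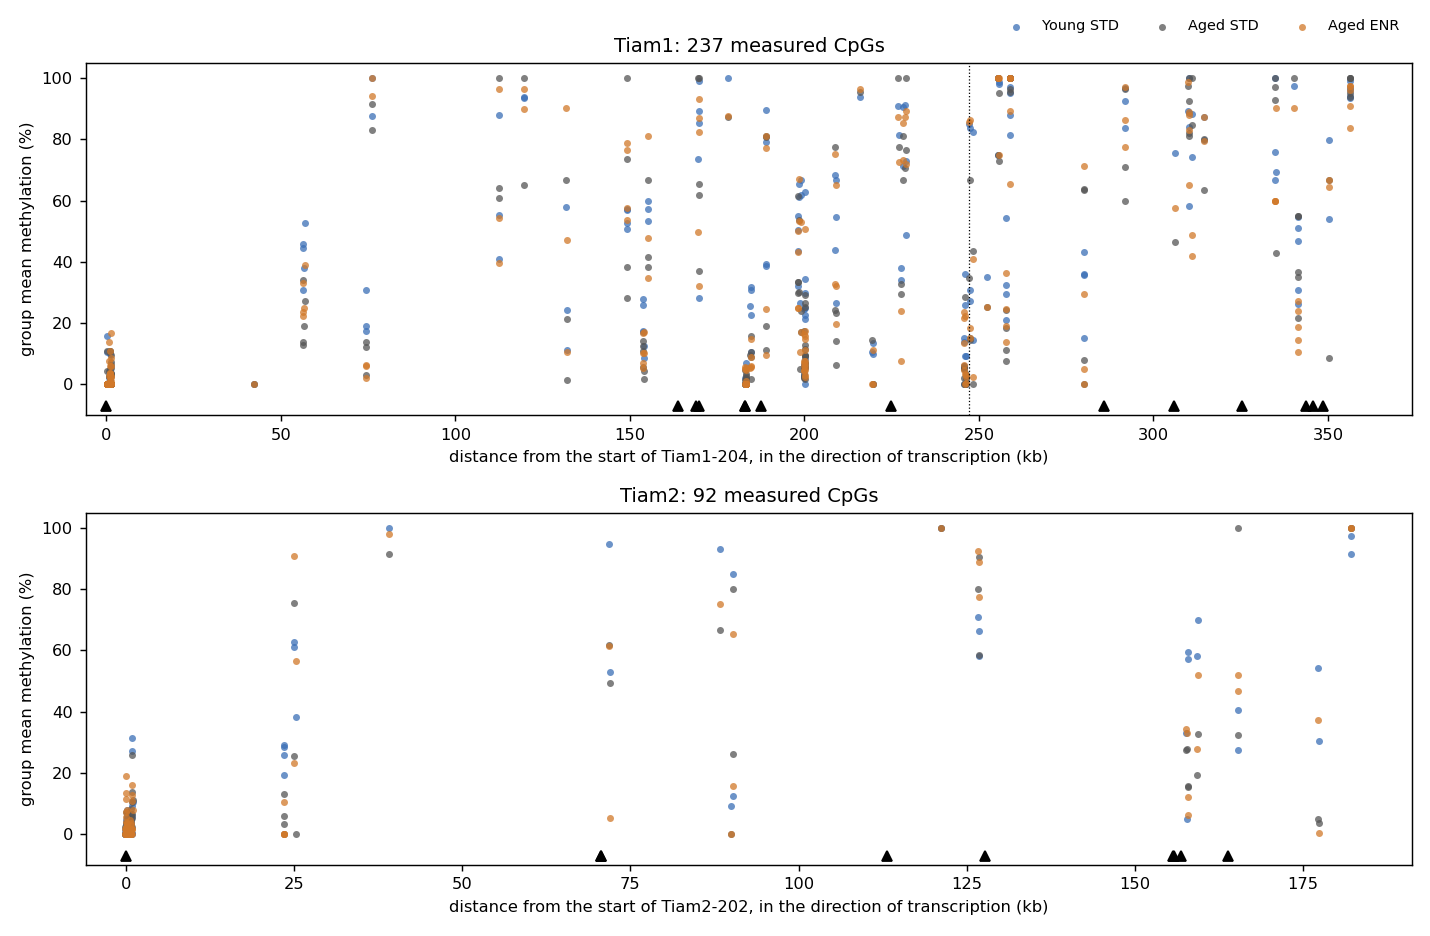
Group mean methylation in percent (y axis) of every measured CpG of Tiam1 (top, 237 CpGs) and Tiam2 (bottom, 92 CpGs) against the distance in kb from the first annotated start in the direction of transcription (x axis); colours are groups, triangles are transcription starts and the dotted line is the study's Tiam1 cytosine. Near the first start of each gene most CpGs lie close to 0% in the 3 groups, with 5 CpGs at Tiam1 and 6 at Tiam2 over 10% in a group mean, while body CpGs spread from 0% to 100% in all 3 groups.

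Cytosines of the same CpG can be measured on both strands, and the values of the strands were compared within each mouse. Across both genes, 40 CpGs were measured on both strands, and all but 2 of them had means outside 20% to 80%, where the strands have little room to differ. At these 2, both in Tiam1, the strands differed by a median of 42.2 points over 18 mouse values, with an SD of 53.0 points. For most member CpGs this spread could not be measured, and its sources were not tested.

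All CpGs of the table were fitted together with limma on the percent scale, and a CpG was called at a Benjamini-Hochberg adjusted p under 0.05 with a difference over 25 points. The 4 CpGs of the study's fragment were left out, which left 233 CpGs at Tiam1. Tiam1 was selected on these contrasts by the study, so its counts and differences are a description and no single p-value is given for it. This holds also for its counts at an unadjusted p and for counts that pool it with Tiam2. Tiam2 entered as its paralog. The test measures the spread between mice.

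Between Aged STD and Young STD, none of 185 Tiam1 and 64 Tiam2 CpGs tested was called, as for the whole table (0% of CpGs called). At an unadjusted p under 0.05 limma gave 11 Tiam1 CpGs, 9 of them lower in Aged STD, and 8 Tiam2 CpGs, 7 of them lower. These were 5.95% and 12.5% of those tested, together 7.63%, against 4.42% over the table. Without Aged STD mouse 3 the 19 became 12. Without a test, 20 Tiam1 CpGs (8.58%) and 11 Tiam2 CpGs (12.0%) were lower in Aged STD by over 25 points, against 4.98% over the table, and 7 and 2 were higher by that much, against 1.5%. The mean difference was -4.16 points at Tiam1 and -3.46 points at Tiam2, and -1.87 points over all CpGs. Of 39 member CpGs measured in every mouse compared, 0 had group ranges that did not overlap, where the table gave 0.356%.

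Between Aged ENR and Aged STD, 0 of 252 CpGs tested were called (0% of the table). At an unadjusted p under 0.05 limma gave 8 at Tiam1, 5 of them lower in Aged ENR, and 3 at Tiam2, 2 of them lower. These were 4.32% and 4.48% of those tested, together 4.37%, against 2.25% over the table. This count of 11 ran from 2 to 12 as mice were left out, with 2 without Aged STD mouse 7, 5 without Aged STD mouse 5, 6 without Aged STD mouse 1 or Aged ENR mouse 6 and 7 without Aged STD mouse 3. In this comparison 11 Tiam1 CpGs and 2 Tiam2 CpGs were lower in Aged ENR by over 25 points (together 4%, 1.82% over the table) and 9 and 2 were higher (together 3.38%, 3.15% over the table). The mean difference was 0.309 points at Tiam1 and 0.684 points at Tiam2, against 0.818 points over all CpGs. None of 29 complete CpGs had ranges apart, where the table gave 0.0136%.

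Between Aged ENR and Young STD, 0 of 246 CpGs tested were called (0% of the table). At an unadjusted p under 0.05 limma gave 9 CpGs at Tiam1, all lower in Aged ENR, and 7 at Tiam2, 5 of them lower. These were 4.97% and 10.8% of those tested, together 6.50%, against 3.95% over the table. Without Aged ENR mouse 4 the 16 became 10. The members held 24 CpGs lower in Aged ENR by over 25 points (7.38%, 3.57% over the table) and 7 higher (2.15%, 1.64% over the table). Of 38 complete CpGs 1, at Tiam2, had ranges that did not overlap, where the table gave 0.275%.

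CpGs that share a fragment share reads, so fragments were also tested as units. The members fell into 61 Tiam1 and 19 Tiam2 fragments, of which 47 had at least 3 CpGs and enough mice. None was called by limma in any comparison. The table gave 0.001% called for Aged STD against Young STD and 0% for both other comparisons. At an unadjusted p under 0.05 there were 2 fragments in Aged STD against Young STD (4.26%, 5.89% over the table), 1 in Aged ENR against Aged STD (2.13%, 3.72% over the table) and 5 in Aged ENR against Young STD (10.6%, 5.29% over the table). These counts rested on single mice. The first was 7 without Aged STD mouse 5, 6 without Young STD mouse 1, 5 without Young STD mouse 5, 4 without Aged STD mouse 1 or 4 and 1 without Aged STD mouse 6. The second was 0 without Aged STD mouse 2 or 4 or Aged ENR mouse 2, 2 without Aged STD mouse 1 or 5 or Aged ENR mouse 3, 4 or 5, and 3 without Aged STD mouse 6 or Aged ENR mouse 7. The third was 3 without Young STD mouse 5. The median fragment difference at Tiam1 was -2, 0.283 and -3.44 points in these comparisons, and at Tiam2 it was 0.0359, -0.433 and -0.914 points.

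The fragments named next are the extremes among those tested, and fragments with fewer CpGs could differ more, such as chr16:89793446-89793570 with 2 CpGs and 40.4 points for Aged ENR minus Aged STD. Within Tiam1, the fragment at chr16:89944879-89944969 in intron 2 of Tiam1-213 had the lowest difference of Aged STD from Young STD. Its mean over 3 CpGs was 45.3%, 25.3%, 65.0% and 71.4% in the 4 Young STD mice measured. In Aged STD it ran from 0% to 40.9% with a median of 6.06% (5 mice), and in Aged ENR from 8.27% to 50.9% with a median of 21% (5 mice). The difference was -36.4 points (SE 14.1), and within library series 27 and 37 it was -23.4 and -47.8 points. The Aged ENR mice lay between the other groups with overlap on both sides.

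The fragment at chr16:89934766-89934931, also in intron 2, had the highest difference of Aged ENR from Aged STD among the tested fragments and was measured in all 19 mice. Its mean over 5 CpGs was 37.7%, 53.8%, 66.2%, 59.1% and 23.1% in the Young STD mice. In Aged STD it ran from 7.73% to 44.9% with a median of 30.4%, and in Aged ENR from 35.5% to 53.7% with a median of 43.6%. Only Aged STD mice 1 and 6 reached the Aged ENR range, and the Young STD mice overlapped both groups. The group means were 48.0% ± 17.4, 25.8% ± 14.4 and 44.8% ± 8.27 (SD, n = 5, 7 and 7), with differences of -22.2 points (SE 10.6) and 19.1 points (SE 8.36). Within library series 27 and 37 the first was -32.5 and -7.77 points and the second was 27.4 and 7.92 points. This fragment holds the CpG at 89934794, which had the lowest difference of the locus. That CpG was at 0% in 4 of 6 Aged STD mice, and at 21.7%, 56.0%, 89.3% and 100% in 4 Young STD mice.

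The extremes in other directions and comparisons were in the same gene. At chr16:89914684-89915047, again in intron 2 of Tiam1-213, the mean was 65.0% in Young STD, 81.0% in Aged STD and 82.8% in Aged ENR, the highest difference of Aged STD from Young STD among the tested fragments of the gene. Fragment means were centred on each CpG before averaging, so that a mouse with few CpGs measured could pass 100%, as 3 of the mice here did. At chr16:89809037-89809261 the mean was 96.6% in 4 Aged STD mice and 60% in 5 Aged ENR mice, of which 2 were at 0% and 3 at 100%, and at chr16:89802126-89802307 it was 44.0% in Young STD, 43.9% in Aged STD and 14.6% in Aged ENR. The library series differed here too. In series 27 and 37, Aged STD minus Young STD was 27.4 and 4.82 points at 89914684, and Aged ENR minus Aged STD was -61.9 and 2.03 points at 89809037. Aged ENR minus Young STD was -28.6 and -4.48 points at 89802126.

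Of the single Tiam1 CpGs measured in every mouse of a comparison, those with the largest differences showed the same spread. The intronic CpG at 89943621 was at 82.8%, 85.2%, 31.8%, 100% and 14.8% in Young STD, ran from 12.5% to 58.8% in Aged STD with a median of 24.0%, and ran from 19.7% to 100% in Aged ENR. Its means were 62.9%, 26.6% and 50.6%, and the 2 lowest Young STD mice lay within the Aged STD range. The CpG at 89945437 had means of 65.3%, 30.2% and 53.2%. The CpG at 89863581 went the other way, with means of 43.1%, 63.9% and 29.4%, while the CpGs at 89885902 and 89885959 of one fragment had means of 32.4%, 7.47% and 13.8% and of 21.2%, 24.1% and 36.4%. The last pair differed in opposite directions between Aged ENR and Young STD, by -18.6 and 15.3 points.

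Further along, the CpG at 89988698 had means of 59.8%, 66.7% and 81.1%, that at 90069477 had 30.7%, 13.7% and 5.91%, and that at 89943641 had 34.3%, 25.3% and 5.77%. At the last, the young mean rested on 1 mouse at 100% while the other 3 mice measured were between 10.4% and 13.4%. The CpG at 90142771, at the edge of the first start, had 1.33%, 10.9% and 3.47%.

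At Tiam2, 4 of the named CpGs lay in introns 15 and 16 of both Tiam2-202 and Tiam2-201, each named for a comparison in which every mouse was measured, and 5 lay around the first start. CpGs measured in fewer mice also differed elsewhere, such as the pair of the fragment at chr17:3398417-3398610 in intron 1, with a mean of 74.0% in Young STD and 33.4% in Aged ENR. The minus-strand CpG at chr17:3503923, in intron 16 and in an exon of a shorter transcript, was the one member CpG whose ranges did not overlap among those measured in every mouse compared, for Aged ENR and Young STD. It was methylated at 43.5%, 53.5%, 25.9%, 16.1% and 13.5% in the Young STD mice. It was at 0% in 6 Aged ENR mice and at 3.03% in the other, and at 12.5%, 0%, 0% and 2.70% in the 4 Aged STD mice measured. Every aged mouse was below every young mouse. The means were 30.5% ± 17.4, 3.80% ± 5.94 and 0.433% ± 1.15 (SD, n = 5, 4 and 7). The limma adjusted p was 0.776 for Aged ENR against Young STD, with a difference of -30.1 points (SE 6.66), so it did not pass the threshold over the table. The plus-strand CpG at the other end of this 127-base fragment had means of 54.2%, 4.82% and 37.3%, and there 2 of the 5 Aged ENR mice measured were at 0% and 1 was at 100%.

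In intron 15, 906 bases past the start of Tiam2-206, the minus-strand CpG at 3484396 was at 63.6%, 36.0%, 56.8% and 81.8% in 4 Young STD mice. In Aged STD it was at 0% in 4 mice and at 6.56%, 32.2% and 71.4% in mice 1, 2 and 5, and in Aged ENR it was at 0% in 5 mice and at 31.6% and 12.1% in mice 6 and 7. No Aged ENR mouse reached the lowest young value, while Aged STD mouse 5 lay among the young mice. It was named for Aged ENR against Aged STD, the comparison in which every mouse was measured, with a difference of -9.50 points. Over the mice measured, the differences were -43.8 points (SE 17.6) for Aged STD and -53.3 points (SE 11.8) for Aged ENR against Young STD, with limma adjusted p of 0.760 and 0.776. The CpG at 3484442, at the end of the same reads, had means of 57.2%, 15.4% and 12.2%. The plus-strand CpGs at the other end of this fragment had means of 33.2%, 27.6% and 34.4% at 3484213 and of 5%, 27.7% and 32.9% at 3484249. The ends of the fragment thus differed, and the lower aged means stood at the minus-strand end.

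The CpGs at 3485869 and 3485938 lay further on in intron 15 and share a fragment. The first was at 60%, 61.1%, 40.2%, 63.0% and 65.9% in Young STD, ran from 0% to 63.0% in Aged STD with a median of 10%, and from 0% to 81.4% in Aged ENR with a median of 13.8%. The second was at 55.8%, 59.9%, 78.9%, 59.8% and 95.5% in Young STD, ran from 0% to 61.0% in Aged STD with a median of 41.3%, and from 35.9% to 75.5% in Aged ENR with a median of 48.6%. The young mice were tightly grouped at the first CpG and the aged mice of both housings spread over its whole range. The differences of Aged STD from Young STD were -38.6 points (SE 14.9) and -37.3 points (SE 15.6), and those of Aged ENR from Aged STD were 8.54 points (SE 15.3) and 19.3 points (SE 14.1). By limma, the adjusted p of these differences ran from 0.760 to 0.825.

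**Figure D4:**
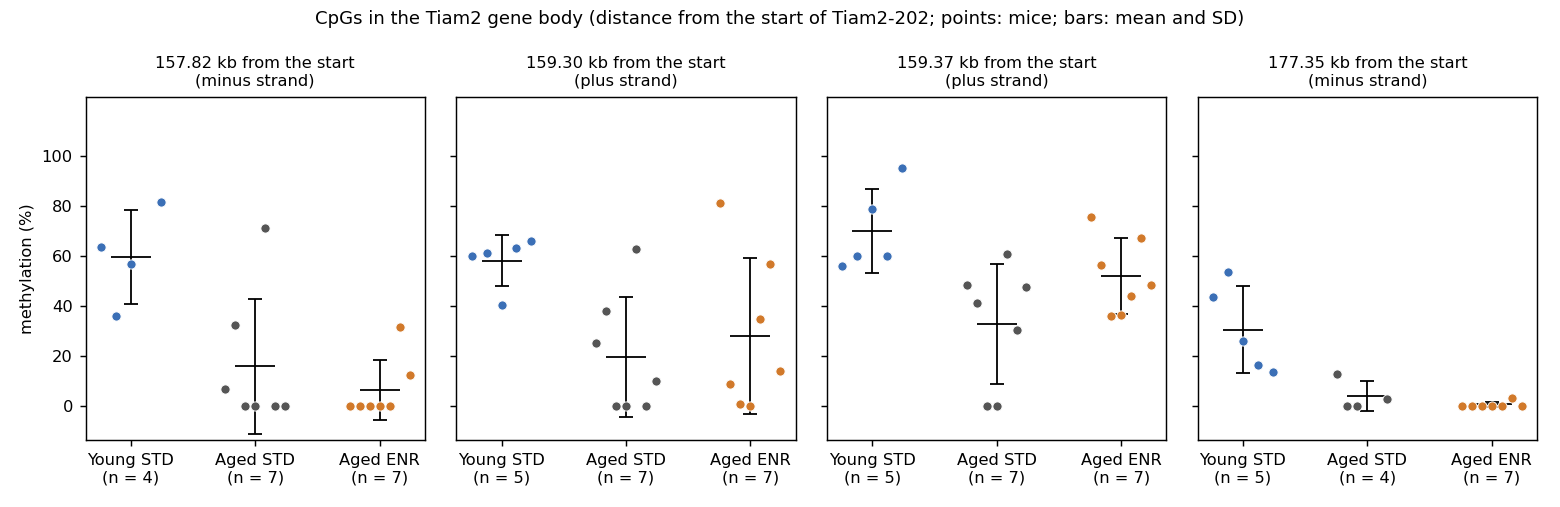
Methylation in percent (y axis) of the 4 named CpGs in introns 15 and 16 of Tiam2 by group (x axis, with the number of mice measured); points are mice, the horizontal bar is the mean and the whiskers the SD, and panel titles give the distance from the start of Tiam2-202 in kb. The Young STD mean is the highest of the 3 means in all 4 panels, and in the last panel, the CpG at 3503923, the aged mice of both housings lie below every young mouse.

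Other Tiam2 fragments did not share one direction. At chr17:3351601-3351863 in intron 1 the mean was 59.7% in Young STD, 34.2% in Aged STD and 52.7% in Aged ENR, but the differences of -25.5 points (SE 18.3) and 18.6 points (SE 14.9) did not pass the limma test, with adjusted p of 0.841 and 0.919. At chr17:3453148-3453365, next to the start of Tiam2-208, it was 65.1%, 76.3% and 86.3%, and without the 1 Young STD mouse at 8.61% (mouse 5) the difference of Aged STD from Young STD was -7.60 points. With all mice, that difference was -8.97 and 25.1 points in library series 27 and 37. At chr17:3350096-3350267 it was 25.7%, 5.57% and 2.65%, with -12.5 and -49.3 points for Aged STD minus Young STD in series 27 and 37, and at chr17:3416559-3416801 it was 34.3%, 35.5% and 27.8%. Around the first start, the CpG at 3327548 had means of 31.2%, 25.9% and 11%. Aged ENR was -20.3 points from Young STD and -14.9 points from Aged STD there. The neighbouring CpGs at 3327503 and 3327598 had 9.28%, 5.16% and 1.65% and 10.6%, 11.2% and 8%, and those at 3326599 and 3326638, within the printed fragment, stayed under 8% in every group mean.

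The mean over each whole locus was then compared per mouse, with each CpG centred first so that mice with different CpGs measured could be set side by side. Over 233 CpGs, the Tiam1 locus mean was 30.8%, 33.5%, 33.2%, 41.0% and 33.7% in the Young STD mice. It ran from 24.8% to 37.8% with a median of 27.7% in Aged STD, and from 27.2% to 34.2% with a median of 31.1% in Aged ENR. Most aged mice lay below the young median, but the groups overlapped. The means were 34.4% ± 3.83, 29.6% ± 4.79 and 30.3% ± 2.62 (SD, n = 5, 7 and 7). The difference was -4.84 points (SE 2.53) for Aged STD minus Young STD, 0.745 points (SE 2.07) for Aged ENR minus Aged STD and -4.10 points (SE 1.92) for Aged ENR minus Young STD, beside median differences over all gene loci of -0.734, 0.312 and -0.428 points.

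The Tiam2 locus mean over 92 CpGs was 19.4%, 19%, 17.8%, 22.7% and 18.4% in the Young STD mice, ran from 11.6% to 23.5% with a median of 16.8% in Aged STD, and from 14.8% to 20.3% with a median of 15.8% in Aged ENR. The means were 19.5% ± 1.93, 16.4% ± 4.23 and 16.6% ± 1.87 (SD, n = 5, 7 and 7). Aged STD differed from Young STD by -3.11 points (SE 1.96, 95% interval -7.35 to 1.12, limma adjusted p = 0.575). Aged ENR differed from Aged STD by 0.220 points (SE 1.70, interval -3.40 to 3.84, limma adjusted p = 0.992) and from Young STD by -2.89 points (SE 1.21, interval -5.52 to -0.265, limma adjusted p = 0.564). The last was past 0.05 only before adjustment, as were 8.36% of all gene loci in that comparison. It was not past 0.05 with all groups in one fit (SE 1.73) or with the composition index described below. Nor was it without Young STD mouse 1 or 4 or Aged ENR mouse 2, 4, 5 or 7. In the other comparisons 11.1% of loci (Aged STD against Young STD) and 4.49% (Aged ENR against Aged STD) passed at an unadjusted p under 0.05, and 0% of loci were called in any of the 3.

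Farther than 1 kb from every start, the differences were larger. The 177 Tiam1 CpGs there had means of 42.4%, 35.9% and 37.2%, with differences of -6.48, 1.35 and -5.13 points in the same order. The 24 Tiam2 CpGs had means of 54.9% ± 7.58, 40.6% ± 14.8 and 42.9% ± 6.43 (SD, n = 5, 7 and 7). In the Young STD mice they were at 48.4%, 54.9%, 47.7%, 66.3% and 57.3%, in Aged STD they ran from 17.3% to 59.4% and in Aged ENR from 34.2% to 53.6%. The differences at Tiam2 were -14.3 points (SE 6.90), 2.24 points (SE 5.87) and -12.1 points (SE 4.08), with limma adjusted p of 0.450, 0.976 and 0.452. The medians over all loci, for CpGs so far from a start, were -1.98, 0.704 and -1 points.

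**Figure D5:**
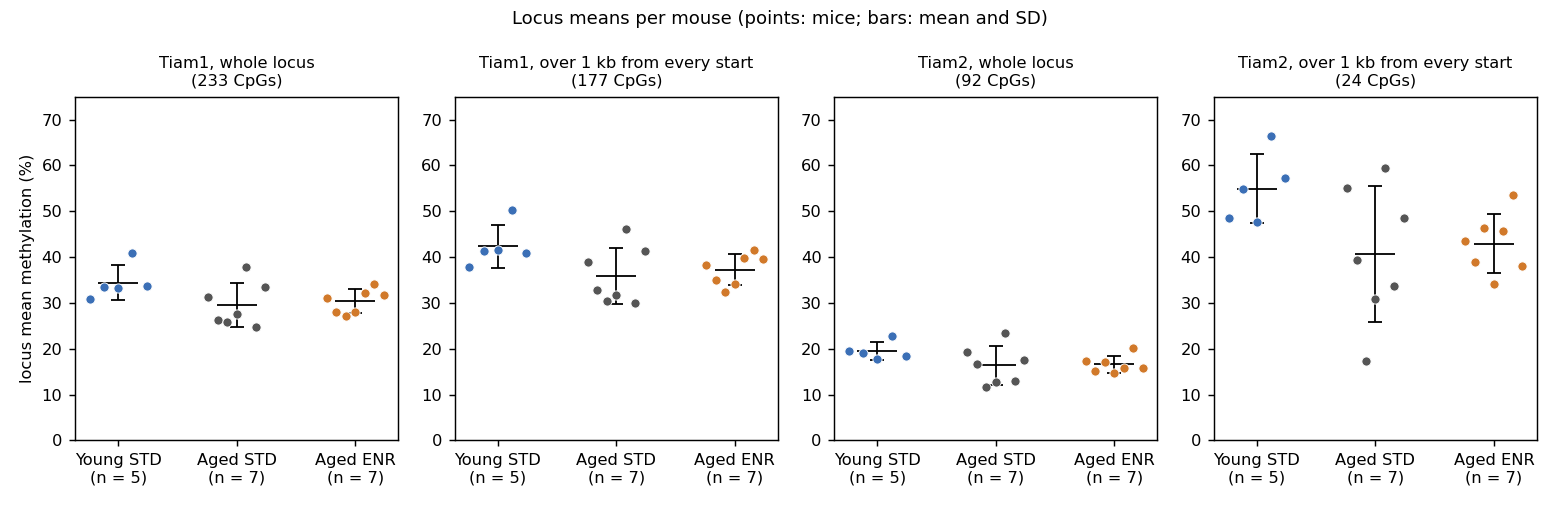
Locus mean methylation in percent (y axis) of Tiam1 and Tiam2 in each mouse by group (x axis, with the number of mice), over the whole locus and over CpGs farther than 1 kb from every start; points are mice, the horizontal bar is the mean and the whiskers the SD. Away from the starts of Tiam2 the Aged STD mice spread from 17.3% to 59.4% around a mean of 40.6%, and the Young STD mice lie between 47.7% and 66.3%.

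The libraries themselves differed in which CpGs they covered, and this moved with the locus means in some mice and not in others. The composition index of a library, the mean level that the CpGs it covered have in the Young STD mice, was 30.6% to 32.3% in Young STD, 19.5% to 38.0% in Aged STD and 23.4% to 36.2% in Aged ENR. Aged STD mouse 5 had the highest index of all mice and the highest locus means of Aged STD at both genes, 37.8% and 23.5%. Aged STD mice 3, 4 and 6 had indices of 19.6%, 20.8% and 19.5% and the 3 lowest Tiam2 locus means, 11.6%, 12.8% and 13.1%. All 3 were at 0% at 3484396 and 3485869, and at 3484396 so were Aged STD mouse 7 and most Aged ENR mice. At Tiam1 the order differed, with Aged STD mouse 2 (index 28.7%) at 26.2%, below Aged STD mouse 4 at 27.7%. Young STD mouse 1 had the highest young index, 32.3%, and the lowest young Tiam1 mean, 30.8%. Aged STD mice 3, 4, 5 and 6 also stood apart over the 69028 CpGs measured in every mouse, where the set of CpGs is the same. The mean there was 16.3%, 17.4% and 16.7% in Aged STD mice 3, 4 and 6, the 3 lowest of all mice. It was 21.5% in Aged STD mouse 5, the highest of the aged mice, while the Young STD mice ran from 19.6% to 21.8%. With the index as a covariate, the difference of Aged STD from Young STD was -1.84 points at Tiam1 and -0.112 points at Tiam2, and that of Aged ENR from Young STD was -2.98 and -2.08 points. The difference of Aged ENR from Aged STD then turned to -1.02 points at Tiam1 and -1.41 points at Tiam2. Within library series 27 and 37, the difference of Aged STD from Young STD was -4.74 and -5.31 points at Tiam1 and -3.64 and -2.53 points at Tiam2. That of Aged ENR from Aged STD was 0.825 and 0.639 points at Tiam1, and 0.946 and -0.748 points at Tiam2.

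Other genes of Rac signalling were compared by the same locus means, as context for the pair. The 61 genes were small GTPases with their effectors, other exchange factors with Elmo adaptors, GTPase activating proteins, and partners or upstream receptors of Tiam1. Of these, 58 had enough CpGs and none was called by limma in any comparison. For Aged STD against Young STD, 11 passed at an unadjusted p under 0.05 (19%, over all loci 11.1%), all lower in Aged STD. The 11 became 4, 6, 6 and 5 without Young STD mouse 4, Young STD mouse 5, Aged STD mouse 3 and Aged STD mouse 6, and 19 without Aged STD mouse 5. Of the 58, 49 were lower and 9 higher, with a median of -2.43 points against -0.734 points over all loci. By role, 13 of 17 GTPases and effectors were lower in Aged STD (median -1.63 points, 1 or 5.88% passed before adjustment). So were 19 of 19 other exchange factors and Elmo adaptors (-3.71 points, 7 or 36.8% passed). The same held for 6 of 7 GTPase activating proteins (-3.45 points, 2 or 28.6% passed) and 11 of 15 partners or upstream receptors (-1.73 points, 1 or 6.67% passed). The share of all loci that were lower was not counted, and among the cell type markers given below 10 of 12 were lower.

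The smallest adjusted p of the list belonged to Wasf1, a member of the WAVE complex that carries the Rac signal to actin, and is named for that after its values were seen. Its locus mean in Aged STD was -4.20 points from that in Young STD, with a limma adjusted p of 0.205. Kalrn and Trio, exchange factors of dendritic spines and axons that were also named after their values were seen, differed by -6.46 and -5.61 points. For Aged ENR against Aged STD, 3 genes passed before adjustment (5.17%, over all loci 4.49%), all higher in Aged ENR, with 39 of 58 higher and a median of 0.797 points against 0.312 points over all loci. These 3 became 8 without Aged STD mouse 5 and 1 without Aged STD mouse 1, 3, 4 or 6 or Aged ENR mouse 3 or 6. For Aged ENR against Young STD, 3 passed before adjustment (5.17%, over all loci 8.36%), all lower, with a median of -1.32 points against -0.428 points, and 12 passed without Aged ENR mouse 6, 6 without Young STD mouse 3 and 5 without Young STD mouse 1. The differences of Tiam1 and Tiam2 between Aged STD and Young STD, -4.84 and -3.11 points, lay within the range of this list, which was -11.5 to 1.90 points.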

How the data were processed

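RRBS libraries of single mice were made by the authors. Per the labels, they trimmed single-end reads with Trim Galore 0.4.0 and cutadapt 1.8.1, mapped them to mm10 with Bismark 0.16.1 and extracted methylation with methylKit 1.5.2. The deposited table holds the percent of methylated reads per cytosine and mouse, missing under 10 reads, without read numbers, so the study's read-based chi-squared test could not be run and the depth is unknown.

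Percentages were fitted with limma 3.58.1 (R 4.3.3) with a variance trend, two-sided, within each pair of groups, and Benjamini-Hochberg adjusted over all CpGs, all fragments between CCGG sites with at least 3 CpGs, or all gene loci with at least 10 CpGs. Locus and fragment means were centred per CpG. Fits were tested on simulated data. The power to call a difference over 25 points at the spread between these mice was not tested. Named CpGs are those with the 2 lowest and 2 highest differences per gene and comparison among CpGs measured in every mouse compared, and those with ranges apart. Where few CpGs were measured in every mouse, the 2 highest could include a negative difference. Named fragments are the largest in each direction. Others were named after their values were seen. The members and lists were chosen with earlier results of these data known. Alternatives were a replicate block, covariates, other filters, scales and thresholds, and each mouse left out.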

Additional observations from a re-analysis of the deposited data

Results flagged for a closer look

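Groups of values were examined, among them those of the study's cytosine and of the named CpGs and fragments. Of 85 groups, 21 (24.7%) held a mouse whose gap to the nearest other mouse was large for the range of its group (Dixon's test at 95%). Chance alone gives about 5% of groups under a normal spread, which percentages piled up at 0% and 100% do not have.

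At the study's Tiam1 cytosine these were Young STD mouse 3 at 25%, where the other 4 were at 100%, and Aged ENR mouse 2 at 42.1%, where the other 3 were at 100%. At other Tiam1 CpGs they were Young STD mouse 4 at 83.9% (89863581), Aged STD mouse 4 at 58.8% (89943621), Young STD mouse 5 and Aged STD mouse 2, each at 100% (89943641), and Aged ENR mouse 2 at 41.4% (90069477). At 90142771 they were Young STD mouse 1 at 6.67%, Aged STD mouse 4 at 50% and Aged ENR mouse 3 at 20.9%.

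At Tiam2 CpGs they were Young STD mouse 1 at 16.7% (3326599), Aged STD mouse 1 at 5% and Aged ENR mouse 2 at 11.5% (3326638), Aged ENR mouse 7 at 11.5% (3327503), and Young STD mouse 1 at 33.3% and Aged STD mouse 7 at 46.2% (3327598). In introns 15 and 16 they were Aged ENR mouse 6 at 31.6% (3484396), Young STD mouse 3 at 40.2% (3485869) and Aged ENR mouse 6 at 3.03% (3503923). The fragments with such a mouse were 89802126 at Tiam1, with Aged ENR mouse 6 at 56.5%, and 3453148 at Tiam2, with Aged ENR mouse 7 at 44.7%. No single mouse held more than 3 of the 21 values.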

How the results depend on the processing

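No member CpG or fragment and no Rac pathway gene was called under any alternative run, leaving out each mouse included. Over the whole table, CpGs called went from 0 to 113, 19 and 81 (Aged STD against Young STD, Aged ENR against Aged STD and Aged ENR against Young STD) without a variance trend, and called loci from 0 to 35 without Aged STD mouse 5 (Aged STD against Young STD), neither Tiam1 nor Tiam2 among them. The Aged ENR against Aged STD locus means were within their error of 0 and changed sign. They were -1.02 points at Tiam1 and -1.41 points at Tiam2 with the composition index, and ran from -0.0537 to 2.11 points and from -0.567 to 1.41 points as mice were left out, negative without Aged STD mouse 6 at Tiam1 and without Aged STD mouse 3, 4 or 6 or Aged ENR mouse 6 at Tiam2. The other locus differences kept their sign in every alternative. With the composition index they were -1.84 and -2.98 points at Tiam1 and -0.112 and -2.08 points at Tiam2 for Aged STD and Aged ENR against Young STD. As mice were left out they ran from -6.21 to -3.22 and from -5.01 to -2.47 points at Tiam1 and from -4.30 to -2.30 and from -3.51 to -2.08 points at Tiam2. In place of the study's cytosine, the centred mean of its fragment gave 8.38 points for Aged ENR against Aged STD (plain CpG means 51.4% and 32.8%) and -11.3 points for Aged ENR against Young STD. At the cytosine itself, the difference of Aged ENR from Young STD was 0.526 points and ran from -14.5 to 15 points as mice were left out (-14.5 without Young STD mouse 3, -4.30 without Aged ENR mouse 1, 4 or 5). There the differences of Aged STD from Young STD ran from -65.2 to -32.7 points and of Aged ENR from Aged STD from 33.3 to 65.2 points.

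With a replicate block the locus differences were -4.67, 0.745 and -5.15 points at Tiam1 and -2.68, 0.220 and -3.46 points at Tiam2, and it changed no call. Replicate numbers did not pair the mice: deviations of the 17 same-numbered pairs correlated at -0.0965 to 0.0778. The block gave -4.12 points for the CpG at 3327598 (Aged STD against Young STD), 6.79 points for the fragment at 89809037 (Aged ENR against Aged STD) and -0.381 points for the CpG at 3326599 (Aged ENR against Young STD), each of the opposite sign. The CpG at 3327598 also turned without Young STD mouse 2, 4 or 5 or Aged STD mouse 7 (-5.19 to 6.33 points as mice were left out), the fragment at 3453148 without Young STD mouse 5 (-7.60 to 22.9 points), and the CpG at 3485869 (Aged ENR against Aged STD) with the index (-1.85 points) and without Aged ENR mouse 1 (-0.370 to 15.8 points). Over the CpGs measured in all mice, 4 at Tiam2 and 12 at Tiam1, Aged STD differed from Young STD by -21.3 and -5.27 points. Aged ENR differed from Young STD by -19.0 and -2.94 points and from Aged STD by 2.35 and 2.33 points. Over CpGs beyond 1 kb of every start these values were -14.3 and -6.48 points, -12.1 and -5.13 points, and 2.24 and 1.35 points. Causes were not tested. A mean of both strands was not run for the study's cytosine, whose partner was not analysed here. Unknown depth limits every single value.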

Other observations

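Loci of cell type markers were compared by the same locus means, since the dissected tissue held several cell types. Methylation of a marker's locus does not measure how many such cells were present. Of 17 markers of granule cells, oligodendrocytes, astrocytes and microglia, 12 had at least 10 CpGs, and limma called none in any comparison. Between Aged STD and Young STD, 4 passed at an unadjusted p under 0.05 (33.3%, over all loci 11.1%), all lower in Aged STD: Aldh1l1, an astrocyte enzyme of folate metabolism (-11.3 points), Mbp, a myelin protein (-5.97 points), Prox1, a transcription factor of granule cells (-4.69 points), and Cx3cr1, the fractalkine receptor of microglia (-3.79 points). Of the 12, 10 were lower and 2 higher, among them Gfap at 1.33 points, C1ql2 at 0.144 points and P2ry12 at -0.761 points. The median was -3.04 points, beside -4.84 points at Tiam1 and -3.11 points at Tiam2. Between Aged ENR and Aged STD none passed even before adjustment, and the median was 1.37 points. Between Aged ENR and Young STD, 4 passed before adjustment (33.3%, over all loci 8.36%), all lower, with a median of -1.79 points. Their part in the differences at Tiam1 and Tiam2 was not tested.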
